A study of Sus scrofa with 28 samples.

Results

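MUC1 is a transmembrane mucin of epithelial surfaces, and it was measured here by 2 of the 23999 probe sets tested on a porcine array of lung RNA. A probe set is a group of short probes that together read a single transcript. The 2 probe sets, Ssc.17222.1.S1_at and Ssc.17222.1.A1_at, were taken because the array's annotation gives each the single symbol MUC1, as it gives a single symbol to 10069 of all probe sets. MUC1 itself was selected on its measured values in these arrays, namely its lower signal at the medium dose than in air and the disagreement of its probe sets, so values from that contrast are given as a description with no test.

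The arrays measured lung tissue of female swine that had inhaled air or vapour of sulfur mustard (HD), an alkylating agent that injures the airways. All animals were anesthetized, intubated and supine, the exposure lasted 10 min, and tissue was taken 12 h later. The air group had 3 animals (28, 29 and 44), the low group 3 animals given 60 µg/kg (31, 32 and 33), and the medium group 4 animals given 100 µg/kg (34, 39, 41 and 42). The left apical, median and caudal lobes were sampled, except that animal 39 had no caudal array and animal 41 no apical array, which left 28 arrays. The age of the animals is not given in the sources used here. Whole pieces of lobe were extracted, so a lower signal from fewer cells of a type and from less RNA per cell cannot be told apart.

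The MUC1 protein is anchored in the apical membrane, carries dense O-linked sugar chains on a long extracellular domain, and signals through a short cytoplasmic tail. Its extracellular part can be released by membrane proteases, and the tail binds kinases, adaptors and beta-catenin. In the lung it is known from airway epithelium and alveolar type 2 cells, where it limits microbial contact and dampens inflammatory signalling.

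The probe set Ssc.17222.1.S1_at, called the bright probe set below, had a mean signal of 140 over the 28 arrays and was brighter than 67.6% of all probe sets. Ssc.17222.1.A1_at, the dim probe set, had a mean signal of 22.7 and was brighter than 31.2%. Signals are the deposited intensities in linear units, with a median over all probe sets of 61.5. The table carried no detection calls, so whether the dim probe set was above background was not known. Over the 28 arrays the log2 values of the probe sets had a Pearson r of 0.12, and of 0.18 with the exposure and lobe means removed. These arrays share animals, and the value is a description. The 2 probe sets are described separately.

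In the air animals the bright probe set had signals of 179.2 (apical), 207.5 (median) and 159.3 (caudal) in animal 28. Animal 29 had 174.5, 202.1 and 178.3 in the same order of lobes, and animal 44 had 152.9, 165.6 and 170.1. The median lobe was highest in animals 28 and 29, and no air array was below 152.9. In the low animals the signals were 131.8, 168.0 and 118.4 in animal 31. Animal 32 had 146.3, 168.0 and 145.4, and animal 33 had 116.3, 177.7 and 140.1. The median lobe was the highest of the 3 in every low animal and lay within the range of the air arrays. The 6 apical and caudal low arrays lay below every air array. These arrays share animals, the share of all probe sets with such an order was not counted, and nothing is read from it.

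In the medium animals the bright probe set had 97.4 (apical), 118.7 (median) and 109.6 (caudal) in animal 34. Animal 39 had 100.8 in the apical and 77.5 in the median lobe, and animal 41 had 124.4 in the median and 75.9 in the caudal lobe. Animal 42 had 77.5, 101.1 and 132.2. All 10 medium arrays lay below all 9 air arrays, which was so for 58 of all probe sets (0.242%), and 7 of 10 lay below every low array. In the apical lobe the 3 exposures were fully apart, with medium below low and low below air, as for 17 probe sets (0.0708%). The choice of MUC1 fixed the separation of medium from air, and nothing is read from these counts.

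**Figure D1:**
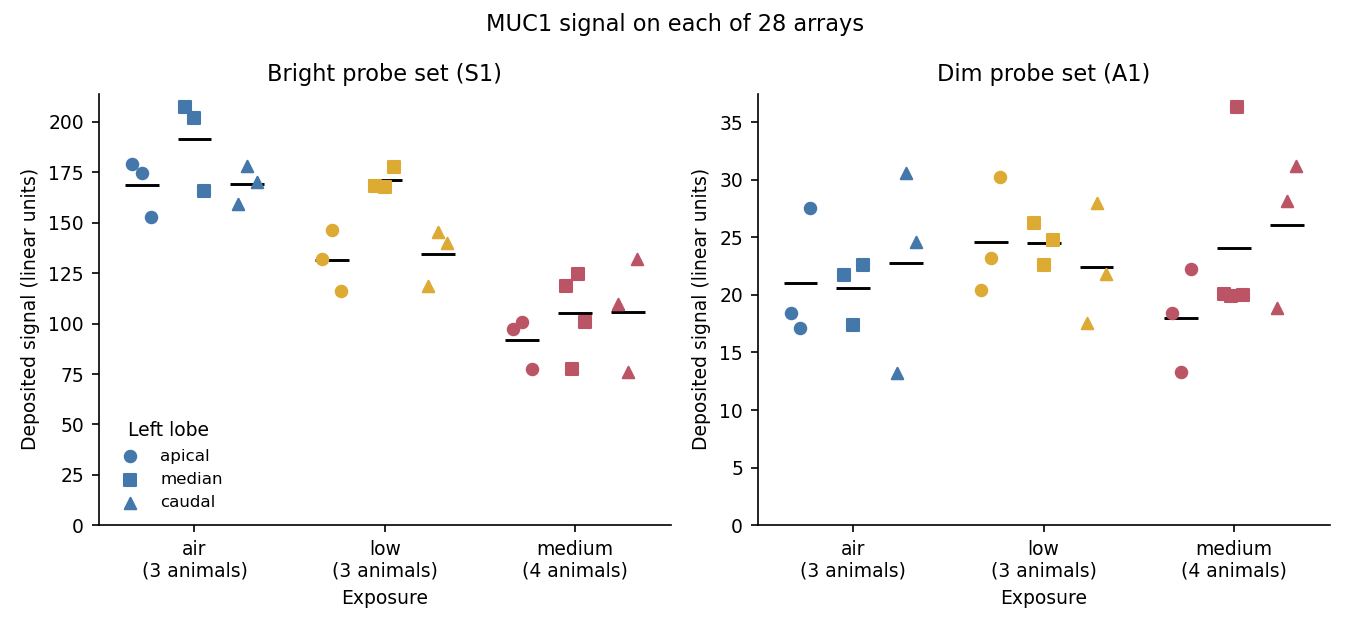
Deposited signal (linear units, axes from 0) of the bright and the dim MUC1 probe set on each of the 28 arrays, by exposure and left lobe. Each point is 1 array and each black line the mean of its group. For the bright probe set every medium array lies below every air array, while for the dim probe set the 3 exposures overlap.

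No such order was seen for the dim probe set. Its signals in the air animals, again as apical, median and caudal, were 18.4, 21.7 and 13.2 in animal 28. They were 17.1, 17.4 and 30.6 in animal 29 and 27.6, 22.6 and 24.6 in animal 44. The low animals lay within the range of the air arrays, from 17.5 in the caudal lobe of animal 31 to 30.3 in the apical lobe of animal 33. The medium animals held the highest signal, 36.3 in the median lobe of animal 41, and also 13.3 in the apical lobe of animal 39, close to the lowest of all arrays at 13.2. Group means over animals were 21.5 ± 3.56 in air (SD, n = 3), 23.9 ± 2.20 in low (n = 3) and 23.1 ± 6.92 in medium animals (n = 4). The 3 groups overlapped.

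Taken per animal, the mean signal of the bright probe set was 182, 185 and 163 in air animals 28, 29 and 44. It was 139, 153 and 145 in low animals 31, 32 and 33, and 109, 89.2, 100.1 and 104 in medium animals 34, 39, 41 and 42. The group means were 177 ± 12.0 in air (SD, n = 3), 146 ± 6.97 in low (n = 3) and 100.4 ± 8.23 in medium animals (n = 4). No animal's value overlapped with those of another exposure. On the log2 scale, with the lobe taken into account, the same complete order of medium below low below air was found for 47 of all probe sets (0.196%). MUC1 was chosen for its lower signal at the medium dose, so nothing is read from this count either.

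For the comparisons, signals were used as log2(signal + 16) after quantile normalization, and each animal gave 1 value over its lobes. The offset makes differences smaller, most of all for dim probe sets, and the folds below are those of signal + 16. Differences are given with their standard error from limma. A call needed a p under 0.05 after Benjamini-Hochberg adjustment over all 23999. The labels show separate animals, so the spread is that between animals.

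Medium against air is the contrast that chose the gene. The log2 value of the bright probe set was 7.61, 7.65 and 7.49 in the air animals, and 6.97, 6.72, 6.77 and 6.91 in the medium animals. The difference was -0.74 ± 0.08 (4 against 3 animals), a fold of 0.60. For the dim probe set it was 0.01 ± 0.09. Among all probe sets 31 were called in this contrast (0.129%). The 95% interval was -0.92 to -0.56 for the bright probe set and -0.19 to 0.21 for the dim one. Neither interval takes account of the choice of the gene on this contrast, so neither is read as a test. With the 8 animals that had 3 lobes the bright probe set differed by -0.64.

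Low against air asks whether MUC1 differed at the smaller dose. It shares its air animals with the contrast that chose the gene, so it is not independent of the choice. The low animals had log2 values of 7.27, 7.40 and 7.29 for the bright probe set, each below the 3 air animals. How many of all probe sets separated this pair of groups was not counted, and nothing is read from it. The difference was -0.26 ± 0.09, a fold of 0.83, and it did not pass limma's test (adjusted p = 0.655, 3 against 3 animals). Its 95% interval ran from -0.45 to -0.07. For the dim probe set it was 0.05 ± 0.10 (limma, adjusted p = 0.91; interval -0.17 to 0.27). With limma 0 probe sets (0%) were called in low against air, and 1780 of 23999 had an unadjusted p under 0.05. Where nothing differs, a share of 0.05 of all probe sets would be expected there, and the same holds for such counts below. With a random animal effect 28 were called.

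Medium against low shares its medium animals with the contrast that chose the gene. The bright probe set differed by -0.48 ± 0.08 on the log2 scale, a fold of 0.72, and did not pass (limma, adjusted p = 0.0874, 4 against 3 animals). The interval was -0.66 to -0.30. Every medium animal lay below every low animal. The share of all probe sets with this separation of the pair was not counted, and nothing is read from it. Without medium animal 34 the bright probe set passed (-0.52, limma adjusted p = 0.022). The same step raised the number of calls over all probe sets from 1 (0.00417%) to 1373. The bright probe set also passed with all arrays fitted under a random animal effect (-0.47, limma adjusted p = 0.0229), where 1393 probe sets were called. In 19 of 21 alternative settings it did not pass, with a limma adjusted p of up to 0.309. For the dim probe set the difference was -0.04 ± 0.09 (limma, adjusted p = 0.842).

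Each lobe was also fitted alone with 1 array per animal. Against air, the bright probe set in the medium animals differed by -0.76 ± 0.12 in the apical, -0.76 ± 0.13 in the median and -0.62 ± 0.18 in the caudal lobe, given as a description. In the low animals it differed by -0.34 ± 0.12 in the apical lobe (limma, adjusted p = 0.689). It differed by -0.16 ± 0.14 in the median lobe (limma, adjusted p = 0.837) and by -0.29 ± 0.18 in the caudal lobe (limma, adjusted p = 0.83). None of these passed, and in low against air limma called 0 probe sets (0%) in each lobe, with 1708, 1665 and 1460 at an unadjusted p under 0.05. Between the medium and low animals the differences were -0.42 in the apical, -0.60 in the median and -0.34 in the caudal lobe (limma, adjusted p = 0.368, 0.0769 and 0.567). The dim probe set had 0.07, 0.09 and -0.01 in low against air, and -0.14, 0.11 and 0.03 in medium against air, in the same order of lobes.

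**Figure D2:**
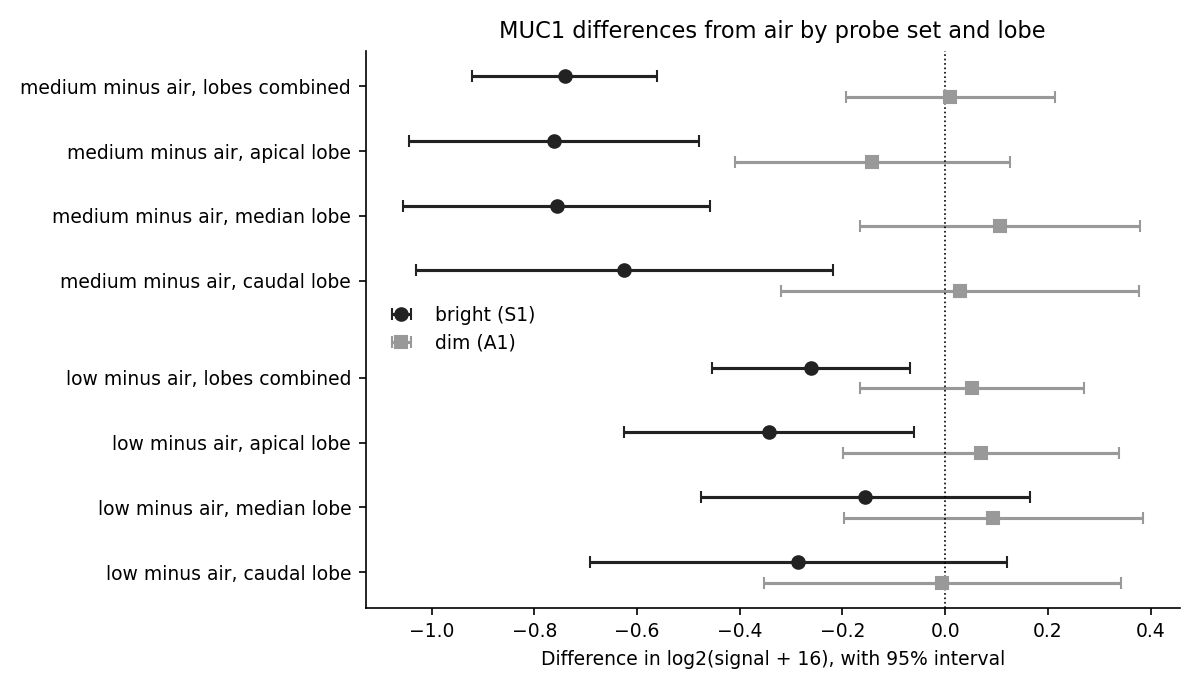
Differences of both MUC1 probe sets from air in log2(signal + 16), with 95% intervals from limma, over all lobes and in each lobe, for the medium and the low dose. Points left of the dotted line at 0 are lower than air. The medium intervals take no account of the choice of MUC1 on medium against air and are not read as tests. The bright probe set lies left of 0 in all 8 rows, from -0.76 to -0.16, while the dim probe set lies on both sides, from -0.14 to 0.11.

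Lobes were compared within animals, a question that the choice of MUC1 did not use. Apical minus median was -0.23 ± 0.09 on the log2 scale for the bright probe set (95% interval -0.41 to -0.05), below 0 in 8 of 9 animals with both lobes. It did not pass (limma, adjusted p = 0.173), against 579 of all probe sets that did (2.41%). The exception was medium animal 39, where the apical lobe had 100.8 and the median lobe 77.5. Median minus caudal was 0.18 ± 0.09, above 0 in 7 of 9 animals (limma, adjusted p = 0.445), with 0 probe sets called (0%) and 2786 at an unadjusted p under 0.05. Apical minus caudal was -0.05 ± 0.09, below 0 in 6 of 8 animals (limma, adjusted p = 0.864), with 40 probe sets called (0.167%). The apical and caudal difference was 0.01 in the air animals alone and 0.03 without medium animal 42. The dim probe set differed by -0.02, -0.03 and -0.01 in apical minus median, apical minus caudal and median minus caudal (limma, adjusted p = 0.921, 0.898 and 0.977).

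Whether the exposure differences varied between lobes was tested by an interaction of exposure and lobe. For the bright probe set the moderated F was 0.355 (limma, adjusted p = 0.98) and for the dim probe set 0.406 (limma, adjusted p = 0.974). No difference between lobes in the response was detectable with these arrays. Over all probe sets limma called 0 (0%), and 1773 had an unadjusted p under 0.05.

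Ordered by mean signal of the bright probe set, the groups began with the air median lobe at 191.8 ± 22.8 (SD, n = 3). The low median lobe followed at 171 ± 5.60, then the air caudal lobe at 169 ± 9.53 and the air apical lobe at 169 ± 14.02. Below these lay the low caudal lobe at 135 ± 14.3 and the low apical lobe at 131 ± 15.01. The medium groups came last, with the caudal lobe at 106 ± 28.3 (n = 3), the median lobe at 105 ± 21.1 (n = 4) and the apical lobe at 91.9 ± 12.6 (n = 3). Of the 8 neighbouring pairs in this order 7 overlapped in their arrays. The pair that did not was the air apical and the low caudal lobe.

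Genes of the mucin family were set beside MUC1. Of 18 other mucins listed, 4 were measured under a single symbol, and 0 of the 4 were called in an exposure contrast, beside 0% (low against air), 0.129% (medium against air) and 0.00417% (medium against low) of all probe sets. MUC15, a membrane-bound mucin, had a mean signal of 96.7 and differed by -0.39 ± 0.17 in medium against air (limma, adjusted p = 0.279) and by -0.08 ± 0.18 in low against air. MUC4, a large membrane mucin, was very dim at 4.69 and differed by -0.18 ± 0.11 and -0.24 ± 0.12. MUC19, a gel-forming mucin, had a signal of 32.3 and differed by -0.05 ± 0.11 and -0.09 ± 0.11. CD164, a small sialomucin of many cell types, had a signal of 1002 and differences of 0.01 ± 0.06 and 0.00 ± 0.07. CD164 turned to -0.0018 in medium against air and to -0.0025 in low against air with the deposited scaling, and to -0.029 in low against air with median-centred arrays. The median over the 4 mucins was -0.11 in medium and -0.09 in low against air, beside -0.001 and -0.005 over all probe sets.

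The enzymes that build mucin-type O-linked sugars had 8 of 23 genes measured, with a median of 0.03 in medium and -0.07 in low against air. GALNT11, which attaches the starting sugar, had a signal of 516 ± 88.9 in air and 429 ± 61.5 in medium animals (SD, n = 3 and 4). B3GNT3, which extends the core sugars, had 415 ± 16.9 and 430 ± 64.4. The proteases and regulators of MUC1 shedding had 6 of 6 measured, with medians of 0.02 and 0.01. The metalloprotease ADAM9 had a signal of 457 ± 13.4 in air and 462 ± 35.9 in medium animals, and MMP14, another membrane protease, 199.6 ± 35.2 and 161 ± 13.5. In both groups 0 members were called in any contrast of exposures or lobes, where at most 0.129% and 2.41% of all probe sets were.

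Ligands of MUC1 and partners of its cytoplasmic tail had 10 of 19 measured, of which 6 were below 0 and 4 above in medium against air. Their median was -0.03 in medium and -0.04 in low against air. LGALS3, a galectin that binds the sugars of MUC1, had a signal of 1887 ± 385 in air and 1977 ± 295 in medium animals. CTNNB1, the beta-catenin gene, had 1768 ± 23.8 and 1631 ± 47.7. Transcription factors and cytokines known to act on MUC1 had 13 of 18 measured, with medians of -0.05 and -0.03. NFKBIA, the inhibitor of NF-kappaB, had a signal of 1177 ± 199 in air and 1344 ± 234 in medium animals, and the hypoxia factor HIF1A had 852 ± 36.2 and 835 ± 56.4. In exposure and lobe contrasts 0 of 10 and 0 of 13 were called, against the same low shares of all probe sets, and nothing particular to the lists is read from this.

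**Figure D3:**
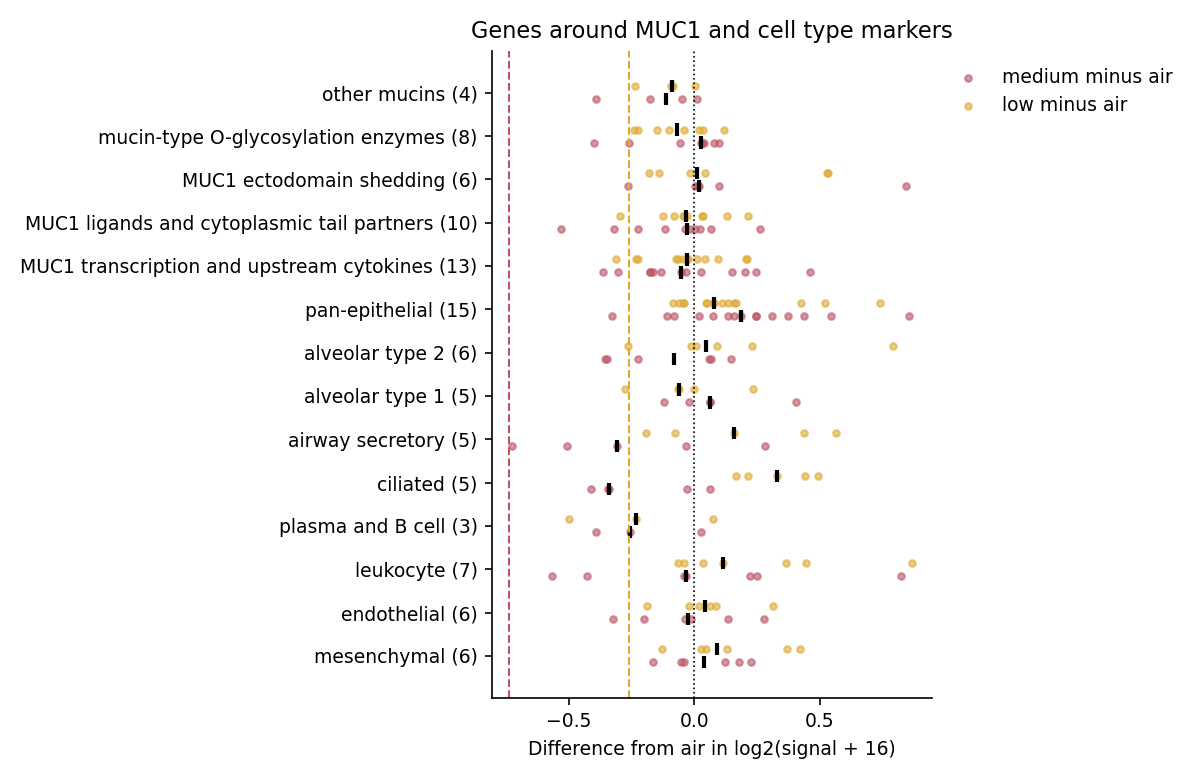
Differences from air in log2(signal + 16) for the measured genes of each list, with the number of genes in brackets. Points are genes, short black lines the list medians, and the dashed lines mark the bright MUC1 probe set at -0.74 (medium) and -0.26 (low). The medium medians run from -0.34 in ciliated markers to 0.19 in pan-epithelial markers.

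Markers shared by epithelial cells were set beside MUC1. Of 20 pan-epithelial markers 15 were measured, and 12 of the 15 were above 0 in medium against air and 11 of 15 in low against air. Their medians were 0.19 and 0.08, with 0 called, beside 0.129% and 0% of all probe sets. Of all 6765 genes with a single symbol, 3090 and 3379 were above 0, with medians of -0.017 and -0.0001. EPCAM, an epithelial adhesion molecule, had a signal of 1354 ± 166 in air and 1412 ± 272 in medium animals, and the keratin KRT8 had 645 ± 56.8 and 1010 ± 214. The mean log2 level of the 15 markers ranged from 8.18 to 8.36 in air, from 8.35 to 8.54 in low and from 8.40 to 8.58 in medium animals. Relative to that mean, the bright MUC1 probe set was at -0.76, -0.65 and -0.69 in air animals 28, 29 and 44. It was at -1.08, -1.14 and -1.11 in low animals 31, 32 and 33, and at -1.43, -1.70, -1.77 and -1.67 in medium animals 34, 39, 41 and 42. The group means were -0.70 ± 0.05 (SD, n = 3), -1.11 ± 0.03 (n = 3) and -1.64 ± 0.15 (n = 4), and the groups were apart. The marker mean was 8.28 in air and 8.48 in medium animals, and this rise adds to the gap between the groups. MUC1 and the marker mean come from the same arrays, and MUC1 was chosen for its lower signal at the medium dose. The separation of medium from air animals is thus not independent of that choice, and these values are a description. The part of epithelial cell number in the MUC1 values was not tested.

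**Figure D4:**
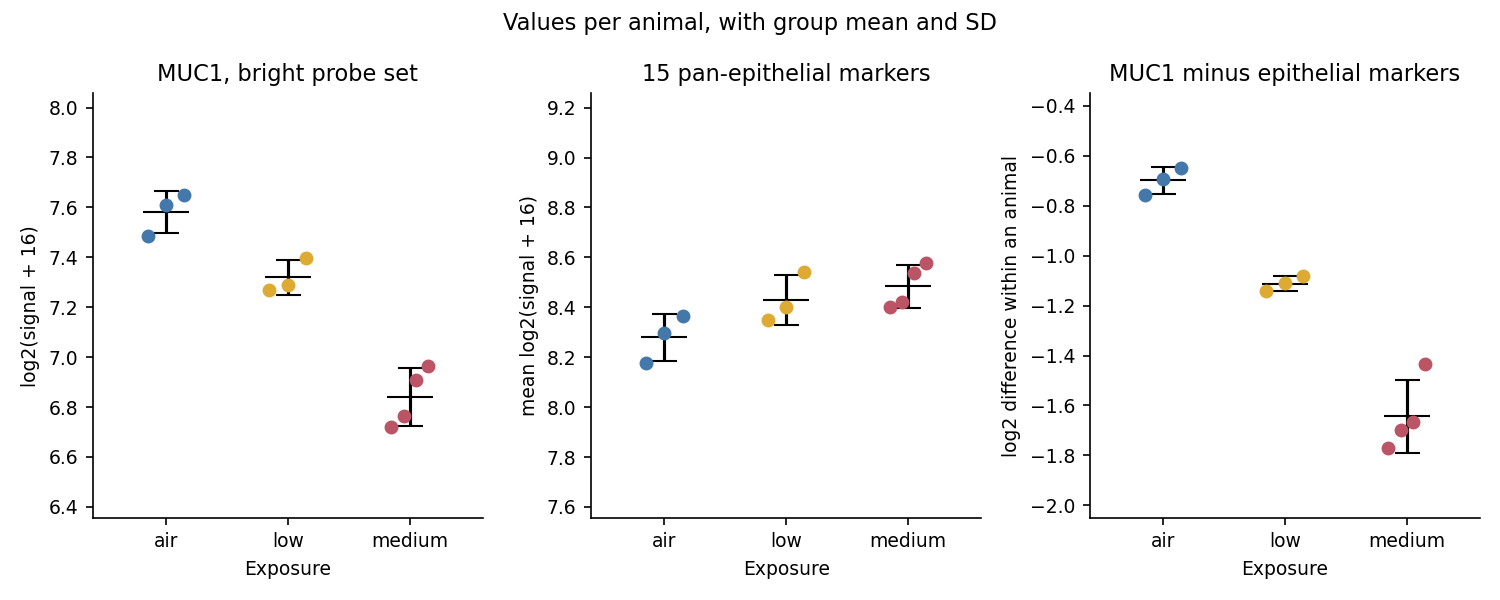
Values per animal in log2(signal + 16) of the bright MUC1 probe set, of the mean of 15 pan-epithelial markers, and of MUC1 minus that mean. Points are animals sorted by value within an exposure, horizontal lines group means and bars 1 SD; the 3 panels span equal heights and do not start at 0. The bright MUC1 probe set steps from a mean of 7.58 in air to 6.84 in medium animals, while the marker mean moves from 8.28 to 8.48. The dim probe set, not shown here, had means of 5.24 in air and 5.25 in medium animals.

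Alveolar type 2 cells, which make surfactant and are known to carry MUC1, had 6 of 11 markers measured. Their median was -0.08 in medium and 0.05 in low against air, with 3 of 6 below 0 in the medium animals. The surfactant protein gene SFTPC had a signal of 2964 ± 350 in air and 3004 ± 251 in medium animals, and the phosphate transporter SLC34A2 had 1826 ± 313 and 1557 ± 229. The mean level of the 6 markers ranged from 9.79 to 10.14 in air, from 10.10 to 10.22 in low and from 9.62 to 10.12 in medium animals, and the groups overlapped. Alveolar type 1 markers had 5 of 8 measured and medians of 0.06 and -0.06. HOPX, a regulator expressed in type 1 cells, had a signal of 2604 ± 148 in air and 2646 ± 85.2 in medium animals, and CAV1, a membrane scaffold gene, 2542 ± 92.1 and 2266 ± 163.

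Airway marker medians were below 0 in medium against air. In exposure contrasts 0 members were called, beside at most 0.129% of all probe sets. Secretory markers had 5 of 11 measured and a median of -0.31 in medium and 0.16 in low against air. TFF3, a secreted peptide of mucous cells, had a signal of 1202 ± 400 in air and 958 ± 336 in medium animals, and WFDC2, a secreted inhibitor, 671 ± 102 and 655 ± 61.1. Ciliated cell markers had 5 of 10 measured and medians of -0.34 and 0.33. The sperm and cilium gene ROPN1L had 309.5 ± 39.01 in air and 306 ± 22.2 in medium animals, and CAPSL 122 ± 17.8 and 91.3 ± 10.1. The mean ciliated level ranged from 6.53 to 6.60 in air, from 6.71 to 7.08 in low and from 6.22 to 6.53 in medium animals. The secretory level ranged from 8.41 to 8.63, from 8.32 to 8.89 and from 8.04 to 8.56. In low against air both airway medians were above 0, and the bright MUC1 probe set was at -0.26 and did not pass (limma, adjusted p = 0.655). The part of airway cells in the MUC1 values was not tested, and 0 of 5 basal cell markers were measured.

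Markers of other cells of the lung gave these values beside MUC1. Plasma and B cell markers had 3 of 7 measured and medians of -0.26 in medium and -0.23 in low against air, with levels from 9.17 to 9.45 in air, 8.998 to 9.124 in low and 8.91 to 9.30 in medium animals. XBP1, a regulator of secretory cells, had a signal of 1605 ± 102 in air and 1661 ± 42.2 in medium animals, and JCHAIN, the immunoglobulin joining chain, 1780 ± 29.4 and 1485 ± 95.5. Leukocyte markers had 7 of 8 measured, a median of -0.04 in medium and 0.12 in low against air, and levels from 7.13 to 7.44, 7.36 to 7.70 and 6.70 to 7.71. The macrophage receptor genes CD163 (1121 ± 163 in air, 1165 ± 455 in medium animals) and MARCO (715 ± 240 and 542 ± 338) varied widely between medium animals. Endothelial markers, 6 of 6 measured, had medians of -0.03 and 0.04 and levels from 9.11 to 9.19, 9.16 to 9.23 and 9.04 to 9.25. The junction genes PECAM1 (1607 ± 44.9 and 1788 ± 121) and CDH5 (1445 ± 105 and 1440 ± 154) were their brightest. Mesenchymal markers, 6 of 8 measured, had medians of 0.04 and 0.09 and levels from 8.888 to 8.996, 9.01 to 9.21 and 8.85 to 9.07. ACTA2, a smooth muscle actin gene, had 2819 ± 324 and 3007 ± 290, and DCN, a matrix proteoglycan gene, 2022 ± 99.1 and 1934 ± 80.7. In each of these lists 0 members were called in an exposure contrast, beside at most 0.129% of all probe sets. The part of these cells in the MUC1 values was not tested.

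Between the apical and median lobes, where MUC1 itself did not pass, 2 of 15 pan-epithelial, 1 of 6 alveolar type 2 and 2 of 3 plasma and B cell markers did, beside 2.41% of all probe sets. The keratin genes KRT18 (-0.53 ± 0.14, limma adjusted p = 0.0498) and KRT19 (-0.43 ± 0.09, limma adjusted p = 0.0216) were lower in the apical lobe, and 14 of 15 pan-epithelial markers were below 0 with a median of -0.12, beside 11677 of all 23999 probe sets below 0 with a median of 0.003. SFTPD, a surfactant protein gene, was lower as well (-0.23 ± 0.06, limma adjusted p = 0.0491), as was XBP1 (-0.19 ± 0.04, limma adjusted p = 0.0315). CD79B, a subunit of the B cell receptor, was higher (0.27 ± 0.07, limma adjusted p = 0.0439). These calls depended on the scaling, the offset and single animals. With the deposited scaling KRT18 (limma, adjusted p = 0.0536) and CD79B (0.0577) did not pass, and with median-centred arrays KRT18 (0.0622), SFTPD (0.0724) and XBP1 (0.0687) did not. With an offset of 1, KRT19 alone of the 5 passed, and with the 8 complete animals none did (limma, adjusted p from 0.0834 to 0.139). Without the animal as a block KRT19 alone passed. KRT19 was no longer called without air animal 44 or medium animal 34, 39 or 42, with values from -0.46 to -0.39 over all leave-outs. With 1 animal left out, KRT18 stayed called only without air animal 28 or 29 (-0.63 to -0.43 over all leave-outs). SFTPD stayed called only without air animal 28 (-0.27 to -0.18), and CD79B only without low animal 33 (0.24 to 0.31). XBP1 was no longer called without air animal 44, low animal 32 or 33, or medium animal 34, 39 or 42 (-0.21 to -0.18). In the air animals alone none of the 5 passed.

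RNA integrity was read from control probe sets at both ends of the actin and GAPDH transcripts, as the mean log2 excess of the 3' over the 5' end, which is higher where RNA is less intact. It was 1.35, 0.97 and 1.05 in air animals 28, 29 and 44, and 0.62, 1.06 and 0.62 in low animals 31, 32 and 33. It was 0.66, 2.22, 1.25 and 0.84 in medium animals 34, 39, 41 and 42. Animal 39, with the highest index, also had the lowest mean MUC1 signal at 89.2, while animal 34, with an index below all air animals, had 109. Without animal 39 the bright probe set differed by -0.71 in medium against air, and with the index as a covariate by -0.73. Low against air was then -0.30 and medium against low -0.43. Array medians ranged from 55.4 to 64.2, and mean correlations of an array with the others from 0.968 to 0.982.

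The genes most like the bright MUC1 probe set over the 28 arrays were found by Pearson's r of log2 values among 6764 other symbols. They were STAT5A, a cytokine-activated transcription factor (r = 0.80), the kinetochore gene NSL1 (0.79), PLEKHJ1 (0.77), the mitochondrial GATB (0.74) and GNLY, a granule protein of cytotoxic lymphocytes (0.72). With exposure and lobe means removed the values were 0.58, 0.33, 0.43, 0.37 and 0.22. The least like were JUN, an immediate early transcription factor (-0.79), PHF11 (-0.77) and the dim SPRP (-0.76), at -0.41, -0.46 and -0.44 with means removed. The arrays share animals and exposures, so these values describe a shared pattern over arrays. With the deposited scaling and with median-centred arrays, 3 of the 5 most like genes were shared.

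The dim probe set was most like other genes. These were the lysosomal protease LGMN (r = 0.78), SRY (0.72), the apolipoprotein APOA2 (0.71), GEMIN5 (0.68) and the ubiquitin ligase ITCH (0.68). SRY is a gene of the Y chromosome, the animals are labelled female, and its probe set had a mean signal of 11.2. APOA2 had a mean signal of 17.1. The least like were the replication factor CDC45 (-0.70), the centromere gene CENPO (-0.70) and VTA1 (-0.69). With means removed these were 0.78, 0.72, 0.75, 0.75 and 0.66 for the most like and -0.71, -0.68 and -0.76 for the least like. With each of the other 2 scalings, 2 of the 5 most like genes were shared.

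The order of genes beside MUC1 was taken from the RefSeq annotation of the pig assembly Sscrofa11.1. The 5 measured genes before it were THBS3, SCAMP3, CLK2, FDPS and RUSC1, and the 5 after it KRTCAP2, SLC50A1, ADAM15, FLAD1 and CKS1B. In medium against air 0 of these 10 were called, beside 0.129% of all probe sets. Their differences ran from -0.18 for SCAMP3, a membrane trafficking gene, to 0.64 ± 0.20 for ADAM15, a membrane metalloprotease (limma, adjusted p = 0.178). THBS3, a thrombospondin and the closest measured neighbour before MUC1, differed by 0.39 ± 0.14 (limma, adjusted p = 0.206). KRTCAP2, a subunit of oligosaccharyltransferase and the closest after it, differed by -0.06 ± 0.08 (limma, adjusted p = 0.729).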

How the data were processed

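Total RNA from 28 lung samples of 10 swine was hybridised to the Affymetrix porcine array. The authors deposited 1 linear intensity for each probe set and array, and the summarization software is not given in the sources used here. On every array the mean was 150 after leaving out the lowest and highest 2%. With 124 control probe sets removed, 23999 remained for testing, of which the platform annotation gave 1 symbol to 10069 (6765 symbols), several to 198 and did not list 13732. Intensities were used as log2(signal + 16), quantile normalized, in R 4.3.3 with limma 3.58.1 and Python 3.11.15.

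Arrays were reduced to 1 value per animal, the animal's coefficient beside a lobe term, and 3 exposure groups were fitted together. Lobes and the interaction used the animal as a fixed block, since the replicate number is the animal. Calls were at a Benjamini-Hochberg adjusted p under 0.05. The steps were tested on simulated data. The number of arrays limits the precision. A gene was represented by its brightest probe set with 1 symbol.

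MUC1 and the lists were chosen with earlier results of these data known. Named genes were the MUC1 probe sets, all measured mucins, called members of each list (at most 4 with the smallest p per contrast) and its 2 brightest, the 5 most and 3 least like genes, and the 5 measured neighbours on each side. Alternatives were other scalings, offsets, filters, models of the animal, an RNA covariate, subsets of animals and leaving out each animal.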

Additional observations from a re-analysis of the deposited data

Results flagged for a closer look

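In 1 of 8 groups of 4 values examined, a single sample stood far from the others. The dim MUC1 probe set had a signal of 36.3 in the median lobe of medium animal 41, against 20.1, 19.9 and 20.0 in the same lobe of medium animals 34, 39 and 42. The bright probe set in that sample had 124.4. Chance marks about 1 in 20 such groups.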

How the results depend on the processing

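The bright MUC1 probe set ranged over the alternatives from -0.83 to -0.56 in medium against air, from -0.31 to -0.20 in low against air (limma, adjusted p from 0.268 to 0.999), from -0.54 to -0.35 in medium against low and from -0.29 to -0.16 in apical against median (limma, adjusted p from 0.0989 to 0.801). In these 4 comparisons its direction held throughout. A change of the error model alone, or in low against air leaving out a medium animal, could only give back the same difference. Such copies count as kept below. The direction in medium against air was that of the choice of the gene. In medium against air the bright probe set moved by more than the spread between animals to -0.56 with an offset of 64 and to -0.64 with the 8 complete animals. A larger offset by itself makes a difference smaller. In medium against low the bright probe set passed under a random animal effect (-0.47) and without medium animal 34 (-0.52). It did not pass in 19 of 21 alternatives (limma, adjusted p up to 0.309). Leaving out each animal gave -0.52 to -0.44. Over 18 MUC1 results other than medium against air, 276 of 296 values kept direction and side of the threshold. Interaction values are p-values and have only a side. In medium against air, given with no test, 21 of 21 values of the bright probe set and 4 of 20 of the dim one were below 0. The dim one was -0.021 with the 8 complete animals there, and leaving out each animal gave -0.052 to 0.057. With the deposited scaling the dim one had 0.010 in median against caudal and 0.0049 in low against air, caudal lobe (0.015 with median-centred arrays). Its apical against median was 0.031 with the 8 complete animals and 0.053 in the air animals alone. The bright probe set had 0.0097 in apical against caudal in the air animals alone. Leaving out each animal gave the bright one -0.084 to 0.031 in apical against caudal. For the dim one it gave -0.063 to 0.018 in apical against caudal, -0.058 to 0.039 in median against caudal, -0.046 to 0.0064 in apical against median, -0.10 to 0.0047 in medium against low, and in low against air -0.15 to 0.12 in the caudal and -0.0067 to 0.15 in the apical lobe. The leave-out ranges of other genes were -0.021 to 0.042 (CD164, low against air), -0.012 to 0.054 (CD164, medium against air), -0.26 to 0.038 (MUC15, low against air) and -0.16 to 0.032 (MUC19, medium against air). With the deposited scaling CD164 had -0.0025 in low and -0.0018 in medium against air, and with median-centred arrays -0.029 in low against air. With only brighter probe sets kept, the dim one has no value.

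Without the animal as a block (no pairing of lobes), the bright probe set had -0.22 in apical against median (limma, adjusted p = 0.324), -0.06 in apical against caudal and 0.16 in median against caudal, and the dim one -0.04, -0.07 and -0.03. The interaction then had an adjusted p of 1.00 for both probe sets with limma. The count of calls in medium against air was 31, and 1037 under a random animal effect, 100 with the RNA covariate, 64 with an offset of 64, 53 in the brighter part, 2 with the 8 complete animals and 1 with only the 2 groups. Leaving out an animal gave 0 to 385. In apical against median it was 579, and 1004 in the brighter part, 205 with an offset of 1, 46 with the 8 complete animals, 39 without the block and 0 in the air animals alone; leaving out an animal gave 33 to 570. In apical against caudal it was 40, from 0 in the air animals alone to 150 in the brighter part. In medium against low it was 1, and 1393 under a random animal effect, 5 with trend and robust eBayes and 3 in the brighter part; leaving out an animal gave 0 to 1373.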
